A study of Mus musculus with 11 samples.

Results

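The BH3-only genes were examined by RNA-seq in thymocytes, the T cell precursors that mature in the thymus. The group was given as a list of 8 genes, Bbc3, Bcl2l11, Pmaip1, Bid, Bad, Bik, Bmf and Hrk, and all 8 were found by name among the 54418 genes of the count table. The mice were 8 to 12 weeks old on a C57BL/6-WEHI background, and RNA came from whole-thymus cell suspensions that were not sorted. There were 4 wt mice, 4 Zmat3-/- mice and 3 mice lacking Puma, p21 and Zmat3 (Puma-/- p21-/- Zmat3-/-, TKO), which had been bred by crossing Zmat3-/- with Puma-/- p21-/- animals. Bbc3 encodes PUMA, so TKO mice carry a deletion in a member of the family, while Zmat3-/- and TKO mice share the loss of Zmat3. Mice lacking only Puma or only p21 were not analysed here, so the effects of these deletions cannot be told apart in TKO mice. The study compared TKO thymocytes with wt and with Zmat3-/- thymocytes. Here Zmat3-/- thymocytes were also compared with wt.

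BH3-only proteins start the mitochondrial pathway of apoptosis. Each carries a short helix, the BH3 domain, that fits into a groove of survival proteins such as BCL-2 and MCL-1, and when these are occupied BAX and BAK open the outer membrane of the mitochondrion. PUMA and NOXA, the product of Pmaip1, are induced by TRP53 after DNA damage, and BIM, the product of Bcl2l11, is known for the death of autoreactive thymocytes. The family differs in its triggers: BID is cut by caspase-8, BAD is controlled by phosphorylation, and BMF and BIM can be held by dynein light chains.

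The coding sequence of the BH3 core is the feature that makes these genes a family, and it is shown here for 7 members (GENCODE M21 on GRCm38.p6). Each run starts at the codon of the conserved leucine, is written 5′ to 3′ on the coding strand, and has the codons of that leucine and of the conserved aspartate in capitals.
Bbc3: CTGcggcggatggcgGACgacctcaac
Bcl2l11: CTGcggcggatcggaGACgagttcaac
Bmf: CTTcagtgtattgcaGACcagttccat
Bad: CTCcgaaggatgagcGATgagtttgag
Bid: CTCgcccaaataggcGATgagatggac
Bik: CTGgcctgcatcggcGATgagatggac
Hrk: CTGcaggcgctgggcGACgagctgcac
Over these 27 bases, Bbc3 and Bcl2l11 had 22 bases in common, the most with Bcl2l11 among the 7 members shown, and Bid had 13 in common with Bbc3. Pmaip1 was left out of this display and was not compared. Each stretch lies within 1 coding exon: chr7:16313773-16313799 (+) for Bbc3, chr2:128147150-128147176 (+) for Bcl2l11, chr2:118545100-118545126 (-) for Bmf, chr19:6950792-6950818 (+) for Bad, chr6:120897289-120897315 (-) for Bid, chr15:83543084-83543110 (+) for Bik and chr5:118169891-118169917 (+) for Hrk. It is part of 1 of 3 annotated coding transcripts of Bbc3 and 4 of 5 of Bcl2l11. The deposited counts are sums over all transcripts of a gene, so they do not show whether a read came from a transcript with the BH3 core, nor from a deleted exon.

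Libraries held 17669715 to 80207003 counts. Values are given as CPM, the counts of a gene scaled to a common library size with TMM factors, and differences as log2FC from edgeR's quasi-likelihood test, in which differentially expressed (DE) genes were those with adjusted p under 0.05 whose log2FC exceeded 1.5 in size. The 12 thymocyte markers were counted in every mouse and summed to 12546 to 17502 CPM, against 480 to 880 CPM for 8 B cell, 132 to 286 CPM for 10 myeloid and 168 to 290 CPM for 11 thymic stroma markers. The 6 erythroid markers varied most, with sums of 880 to 8558 CPM in wt, 1152 to 5705 CPM in Zmat3-/- and 2676 to 3720 CPM in TKO mice. No marker of these lists was at 0 in any mouse. Wt mice 1 and 2 stood apart from wt mice 3 and 4: across genes, log2 CPM correlated at 0.990 and 0.992 within these pairs but at 0.915 to 0.942 between them. The Xist transcript was counted (505 to 1485 CPM) in TKO mouse 1 and in mice 1 and 2 of both other genotypes, whereas the remaining 6 had 0.806 to 2.54 CPM. The labels give no sex. The split of the wt mice also ran with gene length, since wt mice 1 and 2 lay above wt mice 3 and 4 by a median log2 of 0.74 in genes with 1 to 2 kb of exon and below them by 0.58 in genes over 8 kb. Because all comparisons with wt rest on these mice, values with either pair left out are given beside the results they change. This split was chosen after the data were seen, and each such fit keeps only 2 wt mice that are alike. Its wt spread is therefore small by selection, and many more genes were called over the whole table, as given at the end. Adjusted p-values from these fits hold for that choice of mice and are not further support for a difference. The p-values measure the spread between the mice sequenced.

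Among the targeted genes, Zmat3 transcripts were at 9.88 to 26.8 CPM in wt, 5.34 to 6.85 CPM in Zmat3-/- and 7.78 to 8.25 CPM in TKO mice. Cdkn1a, which encodes p21, was at 3.53 to 10.4 CPM in wt, 4.77 to 8.53 CPM in Zmat3-/- and 2.49 to 3.52 CPM in TKO mice. Both genes split the wt mice, so the size of their differences from wt depended on the pair. Zmat3 had 9.88 and 12.2 CPM in wt mice 1 and 2 but 26.8 CPM in both wt mice 3 and 4. Cdkn1a had 8.20 and 10.4 CPM in wt mice 1 and 2, and 3.53 and 4.15 CPM in wt mice 3 and 4. Neither was near 0 in mice that lack the protein, and which exons were removed is not given in the sources used here.

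To compare the members with each other, CPM was divided by the length of exon in kilobases. Bmf had the highest level per kb, 23.1 on average over the 11 mice, followed by Bcl2l11 at 15.6, Bid at 9.62, Bbc3 at 7.78, Bad at 7.56, Pmaip1 at 2.85, Bik at 0.738 and Hrk at 0.00901 CPM per kb. The 4 wt mice alone gave the same order. The levels of Bid (8.44 to 13.9 per kb over all mice), Bbc3 (6.07 to 9.46) and Bad (5.59 to 11.9) overlapped, and with the longest transcript as the length Bad ranked above Bbc3. Pmaip1 lay below these 3 in all mice (at most 4.28 per kb), and Bik below Pmaip1 (at most 1.12). Bcl2l11 (9.16 to 20.4 per kb) overlapped with Bid, Bbc3 and Bad as well as with Bmf (15.7 to 31.3), and in wt mouse 1 it lay below Bid and Bad.

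**Figure D1:**
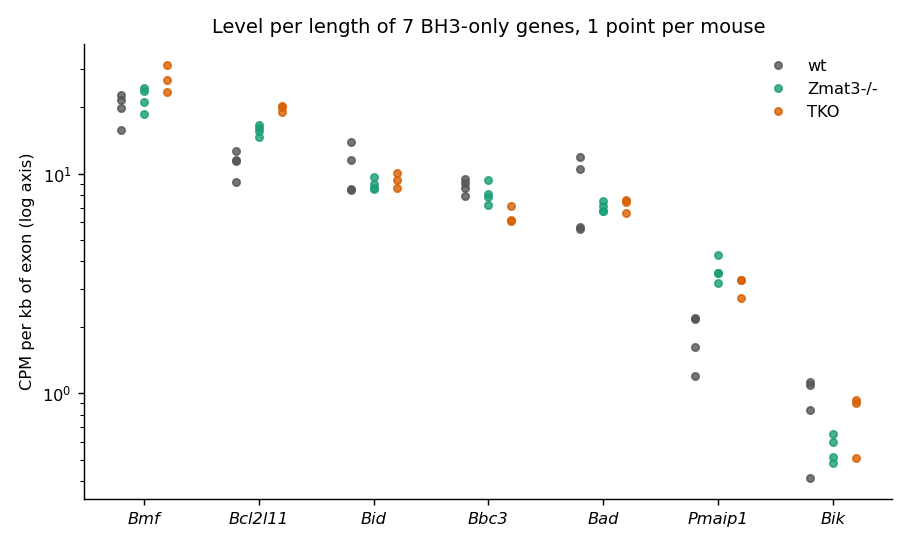
CPM per kb of exon on a log axis for 7 BH3-only genes, 1 point per mouse, ordered by their mean over 11 mice. Bmf and Bcl2l11 have the highest means, Bcl2l11 overlaps with Bid, Bbc3 and Bad, Bik is lowest at 0.411 to 1.12 per kb, and Hrk, which is at 0 in 6 mice, is not drawn.

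Expressed as a share of the summed per-kb level of all 8 genes, Bcl2l11 made up 18.2% ± 2.96 (SD, n = 4) in wt, 23.9% ± 1.46 (n = 4) in Zmat3-/- and 26.8% ± 1.53 (n = 3) in TKO thymocytes. The share of Bbc3 was 14.2% ± 0.586, 12.2% ± 0.836 and 8.77% ± 1.09 in the same order. For the summed per-kb level itself, wt mice ranged from 58.6 to 66.3, Zmat3-/- mice from 62.6 to 69.6 and TKO mice from 71.3 to 77.8, so the family total in TKO mice lay above that of all other mice although its Bbc3 part was the smallest. In bulk RNA, fewer cells that carry a transcript and less transcript per cell cannot be told apart.

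Bbc3 (ENSMUSG00000002083.13, chr7:16308393-16318205) encodes the protein that TKO mice lack, but its transcripts remained. The wt mice had 19.4, 20.1, 16.8 and 18.2 CPM, the Zmat3-/- mice 17.1, 15.3, 16.6 and 19.8 CPM, and the TKO mice 12.9, 15.2 and 13.1 CPM. The TKO mice were the lowest 3 of the 11, at 73.7% of the wt mean, and rested on 273 to 976 counts each. The highest TKO mouse (15.2) and the lowest Zmat3-/- mouse (15.3) were close, and with RLE size factors in place of TMM their ranges overlapped. The log2FC was −0.48 in TKO against wt (SE 0.154, 95% interval −0.83 to −0.12, unadjusted p = 0.0156, adjusted p = 0.400 from edgeR). Against Zmat3-/- mice it was −0.38 (SE 0.134, interval −0.67 to −0.080, adjusted p = 0.982 from edgeR). Neither passed the adjustment with all mice. Zmat3-/- and wt mice overlapped, with a log2FC of −0.11 (interval −0.36 to 0.15). Leaving out wt mice 1 and 2 gave −0.41 for TKO against wt (adjusted p = 0.145 from edgeR), and leaving out wt mice 3 and 4 gave −0.54, which passed it (adjusted p = 0.0310 from edgeR). It also passed with 1 surrogate variable in the fit (adjusted p = 0.0298). TKO mice were also the lowest within the mice with Xist counted and within those with Xist near 0.

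Genes next to Bbc3 were read as a comparison for its level in TKO mice. Of the 26 tested genes within 1 Mb, 0 had an adjusted p under 0.05 from edgeR in TKO against Zmat3-/- mice, 1 had an unadjusted p under 0.05, and 1 had a more negative log2FC than Bbc3. The nearest tested protein-coding gene upstream, Ccdc9, had a log2FC of −0.24 (SE 0.0745) and the nearest downstream, Sae1, −0.0021 (SE 0.0877). Against wt, 5 of 25 neighbours lay below Bbc3, with −0.58 for Ccdc9 (SE 0.227) and −0.24 for Sae1 (SE 0.248). Inafm1, beside Ccdc9, was chosen after its values were seen: its log2FC was −0.94 in TKO and −0.73 in Zmat3-/- mice against wt (adjusted p = 0.0814 and 0.0514 from edgeR). Any part of the Puma allele in the levels of these neighbours was not tested. Without wt mice 1 and 2 the value against wt was −0.20 for Ccdc9, 0.19 for Sae1 and −0.86 for Inafm1 in TKO mice, and without wt mice 3 and 4 it was −0.88, −0.57 and −1.0.

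**Figure D2:**
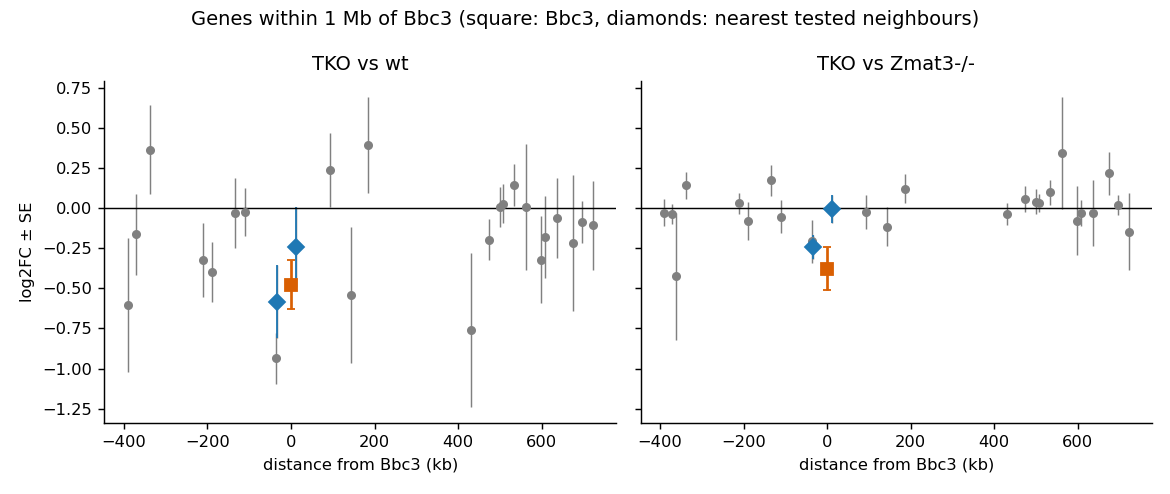
log2FC ± SE of the tested genes within 1 Mb of Bbc3 against their distance from it in kb, for TKO against wt (left) and TKO against Zmat3-/- (right). Bbc3 (square) is at −0.48 and −0.38; around it, neighbours spread from −0.94 to 0.40 on the left and from −0.42 to 0.35 on the right.

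Bcl2l11 (ENSMUSG00000027381.16, chr2:128126038-128162547), which encodes BIM, was the member whose 3 genotypes were separated completely. It had 73.6, 92.4, 91.8 and 101 CPM in wt, 126, 129, 118 and 134 CPM in Zmat3-/-, and 152, 164 and 161 CPM in TKO mice. The highest wt mouse was below the lowest Zmat3-/- mouse, and the highest Zmat3-/- mouse below the lowest TKO mouse. The mean was 141% of wt in Zmat3-/- and 177% of wt in TKO thymocytes. The log2FC was 0.78 in TKO against wt (SE 0.150, 95% interval 0.44 to 1.13, adjusted p = 0.138 from edgeR), 0.50 in Zmat3-/- against wt (SE 0.119, interval 0.23 to 0.77, adjusted p = 0.103) and 0.28 in TKO against Zmat3-/- (SE 0.0781, interval 0.11 to 0.46, adjusted p = 0.612). These miss the threshold with edgeR, while DESeq2 gave adjusted p-values of 0.000211 and 0.00291 for the comparisons of TKO and Zmat3-/- with wt. Bcl2l11 was higher in mutant mice within both Xist classes, and its log2FC in TKO against wt was 0.66 without wt mice 1 and 2 and 0.92 without wt mice 3 and 4 (adjusted p = 0.0135 and 0.00164 from edgeR). In Zmat3-/- against wt the same omissions gave 0.37 and 0.63 (adjusted p = 0.00326 and 0.000689).

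Differences from wt also varied with gene length. Bcl2l11 has 8029 bases of exon, and the 2200 tested genes over 8 kb had a median log2FC of 0.21 in TKO against wt and 0.19 in Zmat3-/- against wt, but 0.019 in TKO against Zmat3-/-. Over all tested genes these medians were −0.038, −0.026 and −0.0082. The part of gene length in the Bcl2l11 differences was not tested.

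Bmf (ENSMUSG00000040093.16, chr2:118528757-118549687), whose product is released from the cytoskeleton when cells detach or are stressed, had 82.6, 105, 120 and 114 CPM in wt, 111, 98.4, 129 and 124 CPM in Zmat3-/-, and 140, 124 and 165 CPM in TKO mice. TKO mice lay above all wt mice but overlapped with Zmat3-/- mice. The log2FC was 0.39 in TKO against wt (SE 0.159, interval 0.02 to 0.76, adjusted p = 0.462 from edgeR) and 0.25 against Zmat3-/- (SE 0.0945, interval 0.04 to 0.46, adjusted p = 0.982). In Zmat3-/- against wt mice it was 0.14 (interval −0.20 to 0.48), and −0.036 without wt mice 1 and 2 and 0.32 without wt mice 3 and 4. In TKO against wt mice the same omissions gave 0.22 (adjusted p = 0.14) and 0.58 (adjusted p = 0.00798 from edgeR).

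Pmaip1 (ENSMUSG00000024521.8, chr18:66458533-66465565), which encodes NOXA, an inhibitor of MCL-1, had 6.02, 5.98, 4.44 and 3.27 CPM in wt, 11.7, 9.67, 8.64 and 9.63 CPM in Zmat3-/-, and 8.98, 9.0 and 7.46 CPM in TKO mice. All 7 mutant mice lay above all wt mice, and the 2 mutant genotypes overlapped. The log2FC was 1.02 in Zmat3-/- against wt (SE 0.210, interval 0.54 to 1.5, adjusted p = 0.0727 from edgeR) and 0.75 in TKO against wt (SE 0.264, interval 0.14 to 1.36, adjusted p = 0.427). Between TKO and Zmat3-/- mice it was −0.27 (SE 0.167, interval −0.64 to 0.10). In the comparison of Zmat3-/- with wt, the adjusted p was 0.000314 with DESeq2, 0.0394 with the Xist level as a covariate and 0.180 when replicate numbers entered as a block. The difference was on the same side within both Xist classes, with mean levels of 10.7 against 6.0 CPM where Xist was counted and 9.14 against 3.85 CPM where it was near 0. Without wt mice 1 and 2 the log2FC was 1.35 in Zmat3-/- and 1.09 in TKO against wt mice (adjusted p = 0.000774 and 0.0428 from edgeR), and without wt mice 3 and 4 it was 0.74 and 0.48 (adjusted p = 0.00388 and 0.123). Some cell type markers moved in the same comparison of Zmat3-/- with wt. Of 12 thymocyte markers, 4 were lower in all Zmat3-/- than in all wt mice, Cd3e (log2FC −0.47), Rag2 (−0.39), Thy1 (−0.38) and Cd8a (−0.23). Higher without overlap were 1 of 10 myeloid markers, Adgre1 (0.70), and 2 of 11 stroma markers, Col3a1 (1.30) and Pdgfra, which did not pass the filter, and 1 of 8 markers of mature or selected thymocytes, Cd69 (0.40). Most markers of 2 of these lists went the other way, with 6 of the 8 mature or selected and 6 of the 10 myeloid markers below 0. In TKO against wt mice, Cd69 (0.46) was higher and Rag2 (−0.30) lower without overlap, while 6 of the 8 mature or selected markers were below 0. The marker genes named here were chosen after their values were seen, none had an adjusted p under 0.05 from edgeR, and their part in the levels of Pmaip1 and Bcl2l11 was not tested. Pmaip1 was thus the member with the largest log2FC in Zmat3-/- mice, and it rested on 85 to 241 counts per wt mouse.

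Bid and Bad, whose products act after cleavage and dephosphorylation, showed mainly the split among wt mice. Bid (ENSMUSG00000004446.12) had 49.4, 40.8, 29.9 and 30.2 CPM in wt, 30.2 to 34.4 CPM in Zmat3-/- and 30.4 to 35.6 CPM in TKO mice. Bad (ENSMUSG00000024959.14) had 30.3, 26.9, 14.7 and 14.3 CPM in wt, 17.4 to 19.2 CPM in Zmat3-/- and 16.9 to 19.4 CPM in TKO mice. For both genes the mutant mice lay between the wt pairs or level with the lower pair, and the groups overlapped. The log2FC of Bad in TKO against wt was −0.26 (interval −0.95 to 0.43), but −0.65 without wt mice 3 and 4 and 0.29 without wt mice 1 and 2. For Bid it was −0.23 (interval −0.68 to 0.22), with −0.47 and 0.073 in the same order. Without wt mice 3 and 4 both passed the adjustment (adjusted p = 0.0121 for Bad and 0.0179 for Bid from edgeR). In Zmat3-/- against wt, Bad passed it in opposite directions, at 0.30 without wt mice 1 and 2 (adjusted p = 0.0366) and −0.65 without wt mice 3 and 4 (adjusted p = 0.000581), and Bid at −0.49 in the latter case (adjusted p = 0.00251). The direction of both therefore depended on which wt mice were used. Between TKO and Zmat3-/- mice, which do not involve them, the log2FC was 0.0055 for Bid (interval −0.16 to 0.18) and −0.016 for Bad (interval −0.28 to 0.25).

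Bik (ENSMUSG00000016758.4), the founding BH3-only gene, was close to the detection filter at 17 to 111 counts per mouse. It had 1.34, 1.74, 1.78 and 0.654 CPM in wt, 0.770 to 1.04 CPM in Zmat3-/- and 0.805, 1.44 and 1.49 CPM in TKO mice, with overlap in each comparison. Its log2FC was −0.62 in Zmat3-/- against wt (SE 0.332, adjusted p = 0.402 from edgeR), and it did not pass the filter between TKO and Zmat3-/- mice. In TKO against wt mice the log2FC was −0.20, with −0.038 without wt mice 1 and 2 and −0.34 without wt mice 3 and 4. Hrk (ENSMUSG00000046607.6), which is known from neurons, passed the filter in no comparison. It was at 0 counts in 6 of the 11 mice and had at most 9 counts in the others. A count of 0 allows up to 0.0403 to 0.167 CPM, taking 3 counts as the limit in the deepest and the shallowest library, for counting error only.

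**Figure D3:**
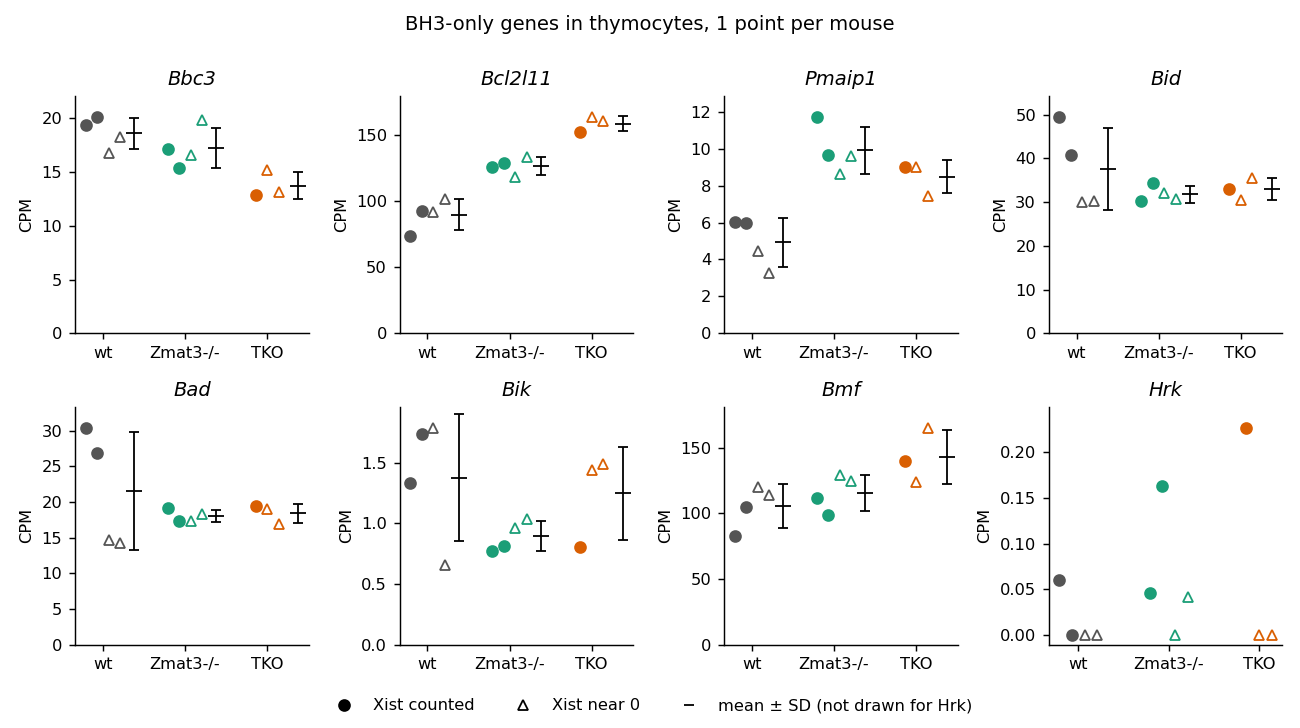
CPM of the 8 BH3-only genes, each on its own linear axis, with 1 point per mouse by genotype (circles where Xist was counted, triangles where it was near 0) and the mean ± SD beside it except for Hrk. Bcl2l11 shows 3 separate levels (73.6 to 101, 118 to 134 and 152 to 164), TKO mice are lowest for Bbc3 (12.9 to 15.2), and Bid and Bad split wt mice 1 and 2 from wt mice 3 and 4.

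Set against all genes, the members were counted as follows. In TKO against wt mice, 0 of the 7 tested members were called DE by edgeR, where 0.241% of all 13275 tested genes were. Without adjustment 4 members had p under 0.05 (10.3% of all genes), namely Bbc3, Bcl2l11, Pmaip1 and Bmf, and the same 4 had groups that did not overlap (12.1% of all genes). In TKO against Zmat3-/- mice, 0 of 6 tested members were called (0.122% of all genes). There, 3 had an unadjusted p under 0.05, Bbc3, Bcl2l11 and Bmf (4.5% of all genes), and 2 had groups that did not overlap, Bbc3 and Bcl2l11 (4.92%). In Zmat3-/- against wt mice, 0 of 7 were called (0.319%), 2 had an unadjusted p under 0.05 (16.1%) and the same 2, Bcl2l11 and Pmaip1, did not overlap (14.1%). The last count was 2 of 7 in a comparison where many genes differed. DESeq2 also called no member at both thresholds in any comparison, and at an adjusted p under 0.05 alone it had 1 member in TKO and 2 in Zmat3-/- against wt mice. The share of all genes at that threshold was not counted with DESeq2, so these 2 counts cannot be set against all genes. Since the comparisons of TKO and Zmat3-/- with wt share the wt mice, their similar values are not independent of each other. With all mice in the fit, no interval reached beyond an absolute log2FC of 1.5.

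**Figure D4:**
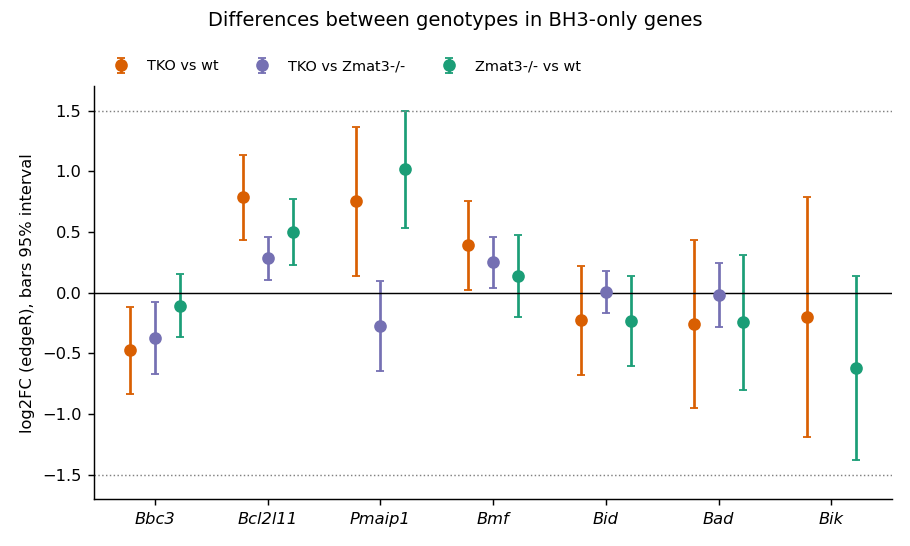
log2FC from edgeR with 95% intervals for 7 members in the 3 comparisons, with dotted lines at the threshold of 1.5. Bcl2l11 is above 0 in all 3 (0.78, 0.28 and 0.50), Pmaip1 is above 0 in both comparisons with wt (0.75 and 1.02), and Bbc3 is below 0 in both comparisons with TKO mice (−0.48 and −0.38).

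The survival proteins and the effectors are the binding partners of BH3-only proteins. Of 8 listed survival genes 7 were tested, and 0 passed the test or had an unadjusted p under 0.05 in any comparison by edgeR. Their median log2FC was −0.045 in TKO against wt, −0.021 in TKO against Zmat3-/- and 0.12 in Zmat3-/- against wt mice. Mcl1, the survival protein bound by NOXA and BIM, had 450 ± 70.0, 517 ± 29.5 and 566 ± 51.9 CPM (SD, n = 4, 4 and 3) in wt, Zmat3-/- and TKO mice, with a log2FC of 0.29 in TKO against wt (SE 0.175). This was 0.48 without wt mice 1 and 2 and 0.13 without wt mice 3 and 4, and in Zmat3-/- against wt mice the values were 0.39 (adjusted p = 0.0027 from edgeR) and 0.035. Bcl2l1, which encodes BCL-XL, had a log2FC of −0.26 in TKO against wt (SE 0.217) and −0.24 in Zmat3-/- against wt (SE 0.162). For 6 of the 7 survival genes, in both comparisons with wt, the direction differed between leaving out wt mice 1 and 2 and leaving out wt mice 3 and 4. For Bcl2l1 in TKO mice these values were 0.020 and −0.48. Bcl2a1a was the 1 survival gene called without wt mice 1 and 2, in Zmat3-/- against wt (1.53, adjusted p = 0.00534 from edgeR). The largest between TKO and Zmat3-/- mice were −0.32 for Bcl2a1d and −0.20 for Bcl2a1b, members of a cluster of near-identical copies whose reads cannot be assigned with certainty. The 3 effector genes gave 0 at an unadjusted p under 0.05 in each comparison by edgeR. Bax had a log2FC of −0.48 (SE 0.275) and Bak1 of −0.14 (SE 0.209) in TKO against wt mice, and −0.40 and −0.17 in Zmat3-/- against wt. All 3 effector genes changed direction with the wt pair, as Bid and Bad did. Bax had 81.0, 68.8, 40.4 and 39.0 CPM in wt mice, and its log2FC in TKO against wt was 0.028 without wt mice 1 and 2 and −0.85 without wt mice 3 and 4. For Bak1 these were 0.22 and −0.43. Without wt mice 3 and 4, Bax and Bak1 passed the adjustment in TKO (adjusted p = 0.00242 and 0.0164 from edgeR) and in Zmat3-/- mice (adjusted p = 0.000181 and 0.000987). Bak1 also passed it in the opposite direction in Zmat3-/- mice, at 0.18 without wt mice 1 and 2 (adjusted p = 0.0417).

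Among 9 genes of the apoptosome and its regulators, 0 were called by edgeR in any comparison, and 0 had an unadjusted p under 0.05 in either comparison of TKO mice. The largest values in comparisons with wt were those of Xiap and Apaf1, at 0.44 and 0.41 in TKO and 0.34 and 0.32 in Zmat3-/- mice, none past the test with all mice. Without wt mice 1 and 2 they fell to 0.015 and 0.079 in TKO and to −0.091 and −0.017 in Zmat3-/- mice, and without wt mice 3 and 4 they were 1.06 and 0.84 in TKO (adjusted p = 0.000869 and 0.00215 from edgeR) and 0.94 and 0.74 in Zmat3-/- mice (adjusted p = 9.26e-05 and 9.39e-05). Between TKO and Zmat3-/- mice, Htra2 had a log2FC of −0.15. Of 8 other genes with a BH3 or BH3-like motif 7 were tested and 0 were called. Bcl2l12 had a log2FC of −0.76 in TKO (adjusted p = 0.427) and −0.81 in Zmat3-/- mice against wt (adjusted p = 0.128 from edgeR), followed by Huwe1, which encodes a ligase that marks MCL-1 for degradation, at 0.46 and 0.37. Huwe1 had 162 and 200 CPM in wt mice 1 and 2 but 634 CPM in wt mice 3 and 4, and its log2FC in TKO against wt was −0.18 without the former pair and 1.67 without the latter. It was called in the latter case, in both comparisons with wt. Bcl2l12 stayed lower in TKO mice, at −0.30 without wt mice 1 and 2 and −1.10 without wt mice 3 and 4 (adjusted p = 0.171 and 0.00127 from edgeR). In Zmat3-/- against wt mice the same omissions gave −0.36 and −1.16 (adjusted p = 0.0192 and 8.98e-05). Bcl2l14 (−0.21) and Bnip3 (−0.13) had the largest values between TKO and Zmat3-/- mice.

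Of 19 listed regulators of BH3-only transcription or turnover 18 were tested. At an unadjusted p under 0.05 by edgeR, 6 were higher and 2 lower in TKO against wt, 6 higher and 3 lower in Zmat3-/- against wt, and 1 higher in TKO against Zmat3-/- mice, and 0 were called. The largest were Fos and Jun, parts of AP-1, with log2FC 3.17 (SE 0.926) and 2.36 (SE 0.770) in TKO and 3.23 (SE 0.846) and 2.53 (SE 0.692) in Zmat3-/- mice against wt, at adjusted p-values of 0.121 to 0.400 from edgeR. Both also differed among wt mice, with Fos at 33.3, 40.2, 2.78 and 3.0 CPM. In TKO against wt, Fos had 5.92 and Jun 4.38 without wt mice 1 and 2, and 2.30 and 1.56 without wt mice 3 and 4, and both genes were called in each case. In TKO against Zmat3-/- mice they were Dynll1, a dynein light chain that binds BIM, at 0.40 (SE 0.162, adjusted p = 0.982) and Jun at −0.17. Foxo3, Nr4a1 and Trp53 were chosen after their values were seen. Foxo3, an activator of Bcl2l11, had 97.5 ± 7.57, 123 ± 3.12 and 139 ± 25.6 CPM (SD, n = 4, 4 and 3) in wt, Zmat3-/- and TKO mice, with a log2FC of 0.46 in TKO against wt (adjusted p = 0.336). Without wt mice 3 and 4 this was 0.55 (adjusted p = 0.00748 from edgeR), and 0.37 without wt mice 1 and 2 (adjusted p = 0.0708). In Zmat3-/- against wt, Foxo3 had 0.35 with all mice (adjusted p = 0.122), and passed the adjustment with either pair left out (adjusted p = 0.00976 without wt mice 1 and 2 and 0.000615 without wt mice 3 and 4). Nr4a1, a nuclear receptor induced by T cell receptor signals, passed the adjustment but not the fold threshold, at 1.15 in TKO and 1.13 in Zmat3-/- mice against wt (adjusted p = 0.0357 and 0.0191). Trp53 itself had −0.17 in TKO against wt (adjusted p = 0.652).

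Immediate-early genes respond within minutes to a stimulus or to cell handling. Of 12 tested, 3 were called higher by edgeR in both comparisons with wt: Klf4 (log2FC 3.05 in TKO and 2.89 in Zmat3-/-), Fosb (3.84 and 3.73) and Dusp1 (2.37 and 2.29), and 0 were called in TKO against Zmat3-/- mice (0 also at an unadjusted p under 0.05). At that p, 7 were higher and 2 lower in both comparisons with wt. The count called was 7 in both without wt mice 1 and 2 and, without wt mice 3 and 4, it was 5 in TKO and 6 in Zmat3-/- mice. Fos, Jun, Egr1 and Nr4a1 belong to this list and to that of the regulators. The 12 genes summed to 367 to 824 CPM in wt, 1350 to 1728 CPM in Zmat3-/- and 1339 to 1750 CPM in TKO mice. Their part in the levels of the BH3-only genes was not tested.

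**Figure D5:**
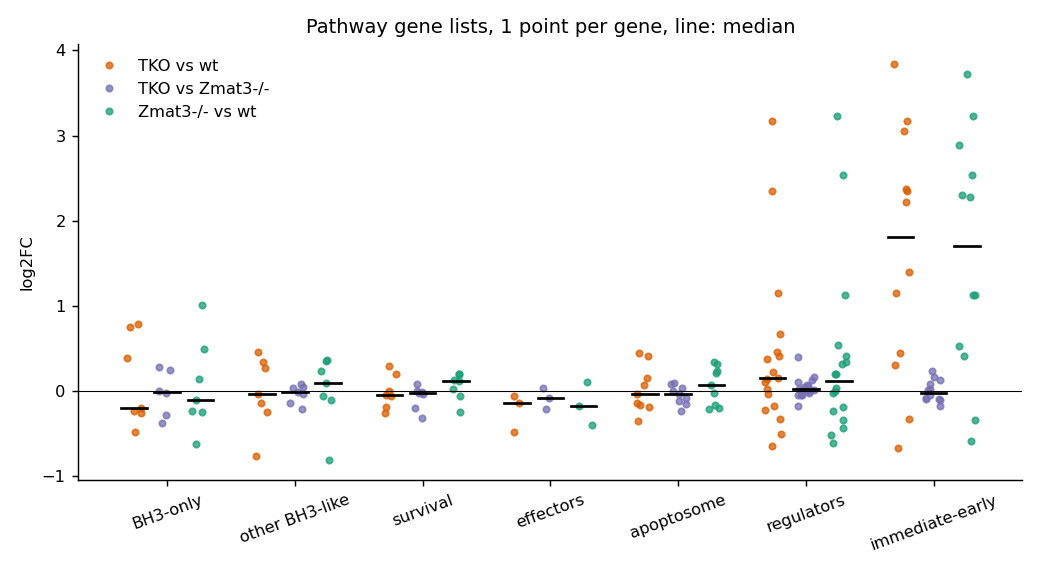
log2FC of each tested gene of 7 lists in the 3 comparisons, with the median as a line. With all mice in the fit, survival, effector and apoptosome genes stay between −0.48 and 0.44, while immediate-early genes have medians of 1.81 and 1.71 against wt and −0.016 in TKO against Zmat3-/- mice.

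Promoter windows of 250 bases before to 50 after each start site (RefSeq, GRCm38.p6) were given for 6 members in 12 windows, and Pmaip1 and Bik had none. The 7-letter FOXO element TGTTTAC was searched on both strands and was found in 2 of the 12 windows, of Bcl2l11 and Bbc3, against 3.65% of all 32851 windows. For these 2 windows, 60 bases around each match are shown with the element in capitals. Any bearing of the element on the levels of these genes was not tested.
Bcl2l11: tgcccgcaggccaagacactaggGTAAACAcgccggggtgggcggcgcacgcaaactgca
Bbc3: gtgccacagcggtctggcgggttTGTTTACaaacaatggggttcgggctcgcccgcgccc
The first is chr2:128125788-128125847, where the element begins 227 bases before the start site at 128126038 and reads on the opposite strand. The second is chr7:16310071-16310130, 167 bases before the start site at 16310261, which is not the first start site of Bbc3. Both lie outside annotated exons of these genes. The CRE letters TGACGTCA (1.79% of all windows) and the AP-1 letters TGANTCA (7.81%) were in 0 of the 12 windows, and the E-box CACGTG (7.15%) was in 1, of Bbc3. A match is a description of the letters and not a binding site.

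Across the 11 mice, log2 CPM of Bbc3 and Bcl2l11 correlated at −0.72 and of Bcl2l11 and Bmf at 0.74, and Bid and Bad at 0.85. These mice share the genotype groups and, for Bid and Bad, the wt split, so the values are descriptive. Among 12960 genes, those with a pattern most like Bbc3 were Gnptg (r = 0.855), Gm36995 (0.853) and 3830406C13Rik (0.849), and those most like Bcl2l11 were Tlr7 (0.956), Rap2c (0.954) and Lgalsl (0.952), each over 11 mice.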

How the data were processed

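RNA was prepared from thymocytes of 11 mice (100 ng per library, TruSeq RNA kit). The authors made estimated counts per gene with Salmon in nf-core/rnaseq on GRCm38.p6 and GENCODE M25, and deposited 1 column per mouse without normalization. All 598598 values were whole. Salmon assigns ambiguous reads by probability, so near-identical genes share error. Names, positions and exon lengths came from GENCODE M21, which matched 54166 of 54418 genes.

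Genotypes were taken from the sample labels and compared pairwise with edgeR 4.0.16 in R 4.3.3 (TMM, quasi-likelihood F-test, two-sided, Benjamini-Hochberg over all tested genes). A gene was tested if enough mice (the size of the smaller group) had 20 or more counts after scaling to the smallest library. Xist, chromosome Y genes, ribosomal RNA and immunoglobulin pseudogenes were left out. The SE is the absolute log2FC over the square root of F. The 95% intervals use the test's degrees of freedom. CPM uses TMM factors over 11 mice, and log2 CPM a prior count of 2. The study's methods used DESeq2 1.40.0 with sex and surrogate variables. Here DESeq2 1.42.0 and sva 3.50.0 were alternatives, with RLE factors, other filters, 1 fit for all genotypes, the Xist level, the replicate number as a block, and each mouse left out. Leaving out wt mice in pairs, for members and pathway genes, was chosen after seeing the data. The calling code was tested on simulated data.

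Replicate numbers come from the sample titles. For Zmat3-/- and wt mice of equal number, deviations from the group means correlated at 0.127 to 0.338 in all 4 pairs, so this comparison was also read as paired. The block moved its count of DE genes from 43 to 8 and called no member.

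Named genes were the 8 members, the targeted genes, called genes of fixed lists or otherwise the 2 with the largest absolute log2FC per comparison, the nearest tested neighbours of Bbc3, and the 3 genes most correlated with Bbc3 and with Bcl2l11. Some genes that this rule names are not reported here. The members and lists were chosen with earlier results of these data known. At 3 counts, the floor per library was 0.0403 to 0.167 CPM.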

Additional observations from a re-analysis of the deposited data

Results flagged for a closer look

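By Dixon's criterion 1 value was picked out, and it carries no weight. Hrk in wt mouse 1 was at 0.0608 CPM (2 counts), while the other 3 wt mice were at 0, so that any count above 0 would have met the criterion. The value is under the limit of 3 counts in that library. Among the 16 groups of 4 mice examined 1 was flagged, and chance flags about 1 in 20 groups.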

How the results depend on the processing

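No member was called DE under any alternative run. At an adjusted p under 0.05 alone, TKO against wt had 0 members by edgeR, 1 with DESeq2, 1 with all 3 genotypes in one fit and 4 with 1 surrogate variable (Bbc3, Bcl2l11, Pmaip1 and Bmf). Zmat3-/- against wt had 2 with DESeq2, 1 with one fit, 1 with the Xist level and 2 with a surrogate variable. Without wt mice 1 and 2 the counts were 2 and 3, and without wt mice 3 and 4 they were 5 and 4, in the same order of comparisons. With each mouse left out they stayed at 0 (0 to 0). The cause of the differences between runs was not tested. At this threshold the share of all genes was counted only for edgeR with all mice, at 0.294% in TKO and 0.764% in Zmat3-/- against wt. DESeq2, the one fit, the surrogate variable and the wt pairs left out also called more genes over the whole table, as given below. Their member counts are therefore not a result about the members.

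The number of DE genes in TKO against wt was 32, and 103 with DESeq2, 51 without a filter, 68 with one fit, 176 with a surrogate variable, 245 without wt mice 1 and 2, 676 without wt mice 3 and 4, and 15 to 35 with each mouse left out, where leaving out TKO mouse 1, 2 or 3 gave 15, 15 and 17. In Zmat3-/- against wt it was 43, and 122, 72, 212, 439 and 733 with DESeq2, one fit, a surrogate variable and the wt pairs left out, and 12 to 47 with each mouse left out, with 12, 14, 13 and 12 without Zmat3-/- mouse 1, 2, 3 or 4 and 25 and 20 without wt mouse 3 or 4. In TKO against Zmat3-/- it was 16, 45 without a filter and 14 to 18 with each mouse left out. With the replicate number as a block, 16, 16 and 8 genes were called in TKO against wt, TKO against Zmat3-/- and Zmat3-/- against wt, and no member call changed. Same-numbered mice correlated over 0.1 in 2 of 3 pairs in both comparisons with TKO mice, so there the block rests on a shared number only.

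Without wt mice 1 and 2, Bid and Bad turned to 0.073 and 0.29 in TKO against wt and to 0.061 and 0.30 in Zmat3-/- against wt, and Bmf turned to −0.036 in the latter. In TKO against Zmat3-/-, where both were near 0, Bid turned to −0.0088 with the block and ranged from −0.027 to 0.043 with each mouse left out, and Bad turned to 0.066 with a surrogate variable and ranged from −0.088 to 0.12. Bik in TKO against wt ranged from −0.42 to 0.055, the latter without TKO mouse 1. With RLE factors 1 member, not 2, had groups apart in TKO against Zmat3-/-. With the longest transcript as the length, 2 members changed rank. Depth limits Hrk and Bik most.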
